A study of Homo sapiens with 5 samples.

Results

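The genes described here encode the factors that start, extend and end protein synthesis in the cytoplasm. The list holds 53 genes: the subunits of the initiation factors eIF1 to eIF6, the eIF2B exchange factor, the 4E-binding proteins, the elongation factors eEF1 and eEF2 with the eEF2 kinase, the release factors and the cytoplasmic poly(A)-binding proteins. They were taken by name from the 20033 protein-coding genes of GENCODE 44 on chromosomes 1 to 22, X and Y. No measured value entered the rule, though earlier results of these data were known when the list was chosen. The question asked of them was where MYC and HSF1, the study's transcription factors, sit at their transcription start sites. The cells were OVCAR8, an established human ovarian carcinoma line, untreated and proliferating, and a single line of this kind stands for no other tumor. The study describes the MYC and HSF1 genes as amplified in this line. CUT&RUN was performed on 500000 cells per reaction after 1 minute in 1% formaldehyde. In this method an antibody brings a nuclease to its target on the chromatin, and the released DNA is sequenced. The samples were 2 MYC libraries, 2 HSF1 libraries and 1 IgG control library, which served as the background for all 4 peak lists and has no list of its own.

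Translation begins when eIF2, loaded with GTP and the initiator tRNA, joins the small ribosomal subunit with eIF1, eIF1A, eIF5 and the large scaffold eIF3. The cap-binding complex eIF4F, made of eIF4E, eIF4G and the helicase eIF4A, brings in the mRNA, and the 4E-binding proteins block eIF4E when mTOR signaling is low. During elongation eEF1A delivers aminoacyl-tRNAs and eEF2 moves the ribosome. MYC is known as an activator of genes for ribosome production and translation and binds the E-box CACGTG, while HSF1 drives chaperone genes from heat shock elements, repeats of GAA in alternating orientation.

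Stretches that hold these motifs are shown first. The heat shock element of 3 units, GAANNTTCNNGAA on either strand, was found in the HSF1 peaks of 2 of the 3 genes that had HSF1 peaks in both lists, EIF2B5 and EIF4A2. The third gene, EIF1AD, had the highest HSF1 signal and no such element, so the stretch between its HSF1 summits is shown without capitals. Each stretch is in GRCh38, on the strand of the gene, with the heat shock element in capitals. They lie at chr3:184134904-184135006 (plus strand, upstream of EIF2B5), chr3:186783726-186783828 (plus strand, intron 1 of EIF4A2) and chr11:66002376-66002405 (minus strand, upstream of EIF1AD and inside the divergent gene BANF1).
EIF2B5: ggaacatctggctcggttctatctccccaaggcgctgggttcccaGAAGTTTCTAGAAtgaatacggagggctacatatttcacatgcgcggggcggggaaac
EIF4A2: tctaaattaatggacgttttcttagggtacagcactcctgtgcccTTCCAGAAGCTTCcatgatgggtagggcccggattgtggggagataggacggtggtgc
EIF1AD: agttgaggcgccccggacctcgacggcgtc

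The next stretches show the E-box, in capitals, in the MYC peaks of 6 genes, on the strand of the gene. The genes are those with the highest MYC signal among the genes with an E-box in a peak and a sequence that could be printed, so that EIF3E, EIF4EBP1, EEF1D and PABPC1, with higher values than all of them, and EIF3H are not shown. The E-boxes of EEF1E1 and EIF4H lay within 100 bp of the summits. Those of EIF5A (697 and 941 bp in replicates 1 and 2), EIF3B (620 and 342 bp) and EEF1B2 (354 and 399 bp) lay far from them, and the nearest of EIF4E was 156 and 727 bp away. They lie at chr2:206160072-206160167 (plus strand, EEF1B2), chr17:7308094-7308123 (plus strand, EIF5A), chr6:8102263-8102358 (minus strand, EEF1E1), chr7:2354071-2354100 (plus strand, EIF3B), chr7:74174112-74174207 (plus strand, EIF4H) and chr4:98929190-98929368 (minus strand, EIF4E). The stretch of EIF4E, the cap-binding protein, holds 2 E-boxes with 147 bases between them.
EEF1B2: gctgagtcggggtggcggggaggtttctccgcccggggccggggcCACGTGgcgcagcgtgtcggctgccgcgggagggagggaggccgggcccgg
EIF5A: gctcagcgcggcCACGTGaggtgggggagg
EEF1E1: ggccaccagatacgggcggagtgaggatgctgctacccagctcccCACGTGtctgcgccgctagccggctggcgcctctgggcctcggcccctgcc
EIF3B: cgcccccgccccCACGTGacccgcgctgtc
EIF4H: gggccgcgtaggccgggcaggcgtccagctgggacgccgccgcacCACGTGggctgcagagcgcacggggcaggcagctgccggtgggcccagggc
EIF4E: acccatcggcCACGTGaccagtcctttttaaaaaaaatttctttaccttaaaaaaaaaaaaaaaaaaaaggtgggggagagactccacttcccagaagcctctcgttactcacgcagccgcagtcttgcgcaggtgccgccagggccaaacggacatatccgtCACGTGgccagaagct

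A gene was counted as having a peak when any base of a peak lay within 1 kb of the start of any of its annotated transcripts. Peaks were called on each library by itself at p-value thresholds of 1e-10 for MYC and 1e-04 for HSF1, after filtering to between 8265647 and 10084407 fragments per antibody library and 9306942 for IgG. The MYC lists held 25623 and 13278 peaks on the main chromosomes and the HSF1 lists 6421 and 4459. The list with the most peaks, MYC replicate 1, came from the library with the fewest fragments. The fold enrichment of a peak is the ratio of the fragment coverage at its summit to the local background set from the IgG library, and a gene is given here by its highest peak in each list. A gene without a peak was not called at this depth and threshold, which does not show that the factor was absent. With 2 lists per factor the smallest two-sided permutation p would be 0.333, so differences are given beside the values of both lists and without a test.

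MYC peaks were found at most translation factor genes, and HSF1 peaks at few. In MYC replicate 1, 49 of the 53 genes had a peak, where 55.3% of all protein-coding genes did. In MYC replicate 2 it was 40 genes, against a background of 41.2%, and all of these were also called in replicate 1. Both MYC lists therefore held 40 of the 53 genes, or 75.5%, and 40.1% of all protein-coding genes. In HSF1 replicate 1, 4 genes had a peak (background 8.58%), and in HSF1 replicate 2 it was 6 genes (background 6.85%). Both HSF1 lists held 3 genes, or 5.66% of the 53, where 3.49% of all protein-coding genes were called, a share that rests on 3 genes. These 3 were in all 4 lists (background 3.05%).

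**Figure D1:**
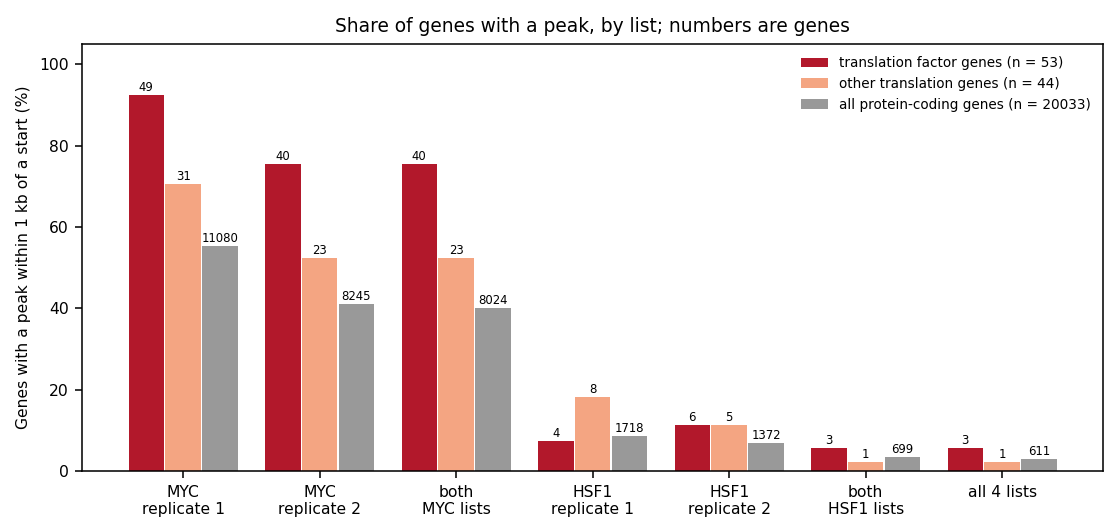
Bars give the percentage of genes with a peak within 1 kb of a start in each list or combination of lists, for the 53 translation factor genes, the 44 other translation genes and all 20033 protein-coding genes, with the number of genes above each bar. The translation factor genes stand highest in each MYC group (75.5% in both MYC lists), and all HSF1 bars are below 20%.

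The translation factor genes have more annotated starts than other genes, with a median of 9 against 5, which gives a peak more places to count. With the canonical start alone, the same number of genes, 40, was called in both MYC lists, and the share of all protein-coding genes was 36.5%. Among genes with 1 to 4 starts, 6 of 8 translation factor genes and 25.1% of all protein-coding genes were called in both MYC lists. With 5 to 9 starts it was 14 of 20 and 46.3%, and with 10 or more it was 20 of 25 and 57.7%. This split was chosen after the counts were seen.

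**Figure D2:**
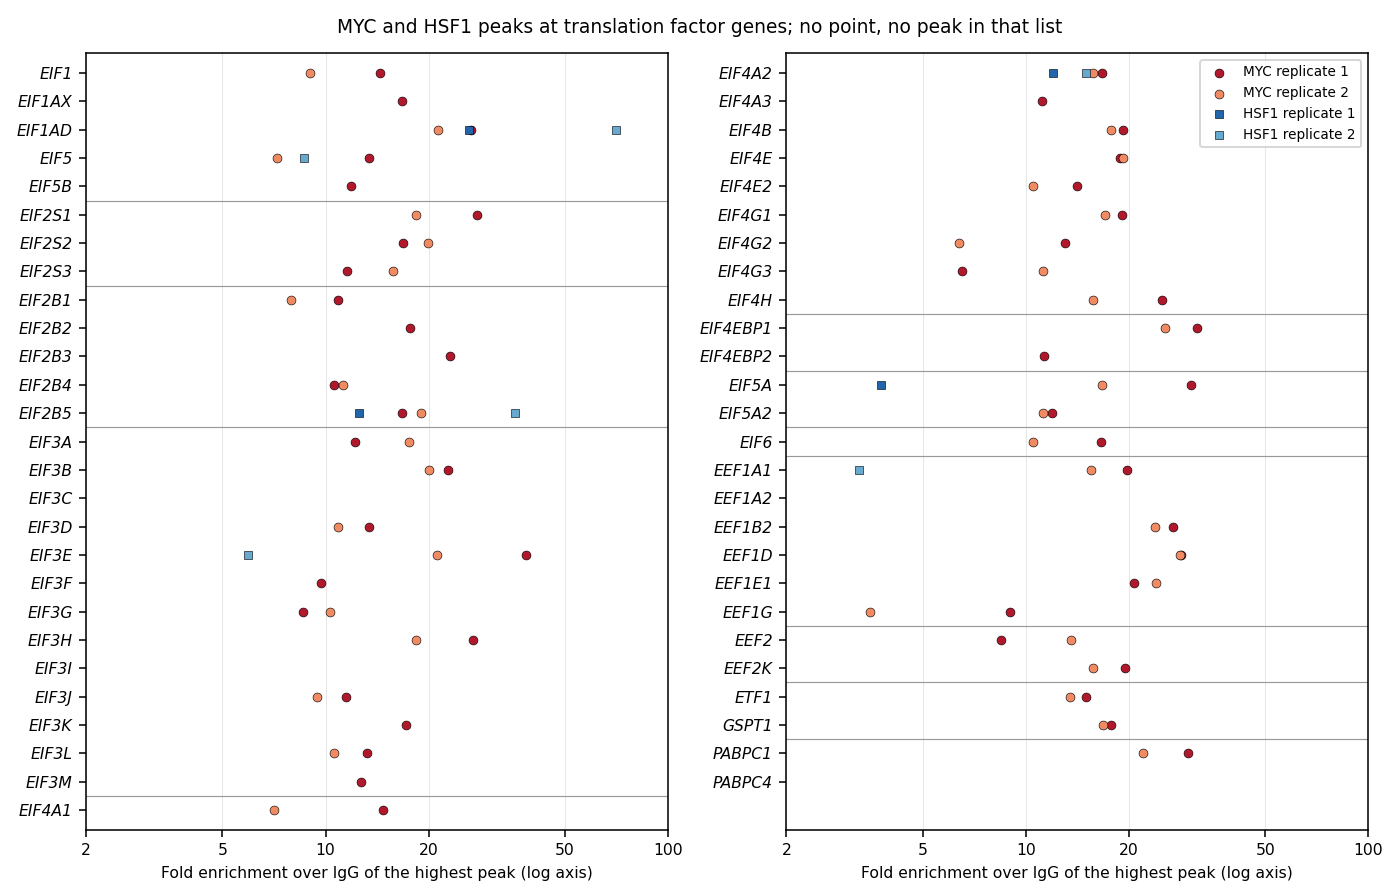
Each row is a gene, grouped by role between the grey lines, and each point is the fold enrichment over IgG of its highest peak in 1 list, on a log axis (MYC as circles, HSF1 as squares). Most rows hold a pair of MYC points between 7 and 30, and only EIF1AD, EIF2B5 and EIF4A2 hold points of all 4 lists.

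In the group of start codon factors and related genes, MYC peaks were called in both lists at EIF1, EIF5 and EIF1AD, 3 of 5 genes. EIF1AD, placed in this group only for the eIF1A-like domain of its protein, had fold enrichments over IgG of 26.7 and 21.3 in the MYC replicates. EIF1, which guards against wrong start codons, had 14.4 and 9.01, and EIF5, the GTPase activator of eIF2, had 13.4 and 7.24. EIF1AX (16.7) and EIF5B (11.9), which joins the subunits, were called in replicate 1 only. The nearest replicate 2 peak of EIF5B lay 1016 bp from a start, just outside the 1 kb limit, with a fold enrichment of 9.53.

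All 3 subunits of eIF2, the carrier of the initiator tRNA, were called in both MYC lists. EIF2S1, which encodes the subunit phosphorylated under stress, had 27.7 and 18.4, with summits past the start of the divergent gene ATP6V1D. EIF2S2 had 16.8 and 19.9, and EIF2S3 had 11.6 and 15.8. The higher value of EIF2S1 was in replicate 1 and those of the other two were in replicate 2, so the order of the 3 subunits differed between the lists. Of the 5 genes for eIF2B, the exchange factor that reloads eIF2 with GTP, EIF2B1, EIF2B4 and EIF2B5 were called in both lists. EIF2B2 (17.7) and EIF2B3 (23.1) were called in replicate 1 only, and EIF2B3 had the highest value among the 9 genes called in replicate 1 alone.

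Of the 13 genes for the eIF3 scaffold, 8 were called in both MYC lists. EIF3E had the highest mean MYC fold enrichment of all 40 genes, 29.8 ± 12.1 (SD, n = 2), from 38.4 and 21.2 in the replicates. EIF3B, a subunit of the core, had 22.7 and 20.1, and EIF3H had 27.0 and 18.3. The EIF3H peaks lay at an alternative start, 10807 and 10815 bp upstream of the canonical one, where its peaks had only 7.14 and 9.40. The remaining called subunits, EIF3A, EIF3D, EIF3G, EIF3J and EIF3L, had mean values from 9.47 to 14.8. EIF3F, EIF3K and EIF3M were called in replicate 1 only. EIF3C and EIF3I had no MYC peak in either list. EIF3C has a near-identical copy, EIF3CL, which had no peak either, and reads that map to both cannot be told apart, so the missing call at EIF3C is uncertain.

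In the group of eIF4F genes, their relatives such as EIF4E2 and EIF4G2, and the helicase cofactors, 9 of 10 genes were called in both MYC lists. EIF4A3, whose product acts in splicing-coupled mRNA surveillance, was called in replicate 1 only. EIF4E had nearly equal values, 18.9 and 19.2. The scaffold gene EIF4G1 had 19.1 and 17.1, and its relatives EIF4G2 and EIF4G3 had lower means of 9.68 and 8.87. The helicase genes EIF4A1 and EIF4A2 had 14.7 and 7.07, and 16.7 and 15.7. The cofactors EIF4B and EIF4H had means of 18.5 and 20.4. EIF4EBP1, the inhibitor of eIF4E, had 31.7 and 25.6, above EIF4E in both lists, while its relative EIF4EBP2 was called in replicate 1 only, at 11.3.

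Of the 6 eEF1 genes, 5 were called in both MYC lists. EEF1D and EEF1B2, which encode exchange factors for eEF1A, had 28.4 and 28.2, and 26.9 and 23.9. EEF1E1, a member of the multi-tRNA synthetase complex, had 20.7 and 24.0, and EEF1A1 had 19.8 and 15.5. The EEF1A1 values come from peaks at different starts. The 19.8 of replicate 1 lay 2630 bp upstream of the canonical start, where replicate 2 had 15.4. At the canonical start the values were 14.4 and 15.5. EEF1G had the lowest mean of all 40 genes, 6.26, from 9.01 and 3.52. Its pileup, the fragment coverage at the summit, was 60 and 33, and the local IgG background derived from pileup and fold enrichment was 5.77 and 8.67, above the median of the 40 genes (1.60 and 1.59). EEF1A2, the paralog of EEF1A1 that is known from neurons and muscle, had no peak of either factor. EEF2 had 8.47 and 13.6, and its kinase EEF2K had 19.5 and 15.7.

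EIF5A, which helps the ribosome through stalling sequences, had 30.3 and 16.7 and its paralog EIF5A2 had 11.9 and 11.2. EIF6, which keeps the ribosomal subunits apart, had 16.6 and 10.5. The release factor genes ETF1 and GSPT1 had means of 14.2 and 17.2. PABPC1, the main cytoplasmic poly(A)-binding protein, had 29.8 and 22.0, whereas PABPC4 had no MYC peak, with the nearest 29286 and 152763 bp from a start.

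Over the 40 genes, the median of the mean fold enrichments was 16.7, and over the 8024 protein-coding genes called in both lists it was 14.4. The height of a gene's highest peak was also expressed as its percentile among the peaks of its list that lie within 1 kb of a coding start. The median of the mean percentiles was 76.3 for the translation factor genes and 60.3 for all called genes. The lists were not alike in this: the median percentile was 69.0 against 68.1 for all genes in replicate 1, and 80.0 against 58.0 in replicate 2. With canonical starts alone the mean percentiles came to 65.0 and 57.8. In replicate 1, 30 of the 40 genes (75%) had the higher fold enrichment, as did 81.1% of all called genes. The log2 fold enrichments of the replicates had a Pearson correlation of 0.70 over the 40 genes and 0.59 over all 8024. This is a description across genes, which are no replicates and share the libraries and the IgG control. The highest peaks of a gene in the 2 lists can lie at different starts, as at EEF1A1.

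**Figure D3:**
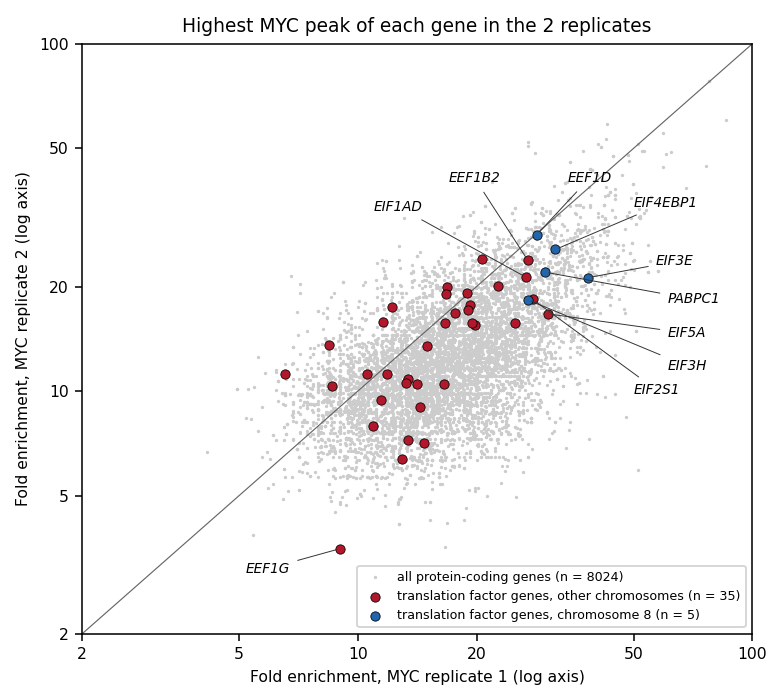
Each point is a gene called in both MYC lists, with the fold enrichment of its highest peak in replicate 1 (x) and replicate 2 (y), both on log axes, and the line marks equal values. The 5 translation factor genes on chromosome 8 (blue) sit at the upper right, EEF1G sits lowest at 9.01 and 3.52, and 30 of the 40 genes lie below the line.

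The 4 genes with the highest mean MYC fold enrichment, EIF3E, EIF4EBP1, EEF1D and PABPC1, all lie on chromosome 8, as does EIF3H. These 5 genes had means from 22.6 to 29.8, with a median of 28.3, and the 35 called genes on other chromosomes had a median of 14.2. Over all protein-coding genes called in both lists the medians were 14.5 on chromosome 8 and 14.4 elsewhere. With canonical starts alone EIF3H fell to a mean of 8.27, below the median of 14.2 on the other chromosomes, and the median of the 5 genes was 28.3 as before. The median pileup of the 5 genes was 87 and 78, against 38 and 32 for the other 35. Their median derived IgG background was 1.78 and 2.17, against 1.44 and 1.55. The MYC and HSF1 genes, which the study describes as amplified in OVCAR8, also lie on chromosome 8. The part of copy number or of the background in these values was not tested. The chromosome 8 genes were singled out after their values were seen.

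Only peaks within 1 kb of a start were counted, so short distances of MYC summits from starts follow in part from the rule. The called translation factor genes also had more starts to measure from, with a median of 9.5 against 7 for all called genes. The part of this in the distances was not tested. The median distance, averaged over both lists, was 123 bp for the 40 genes and 155 bp for all called genes, and 31 of the 40 (77.5%) lay within 250 bp in both lists, against 61.8%. From canonical starts alone the medians were 189 and 208 bp, and the share within 250 bp was not computed. At EEF1D the summits lay 48 and 51 bp downstream of a start, and at EEF1E1 103 bp downstream in both lists. At EIF4E they differed, 48 bp downstream in replicate 1 and 619 bp in replicate 2. A gene start on the opposite strand lay within 1 kb upstream of 21 of the 53 genes (39.6%), against 23.4% of all protein-coding genes. Of these 21 genes, 19 were called in both MYC lists, or 90.5%, against 62.9% of all genes with such a partner. Of the 32 without a partner, 21 were called, or 65.6%, against 33.1%. Peaks at divergent starts, such as those of EIF2S1 and ATP6V1D, which are 63 bp apart, cannot be given to either gene alone. The EIF2S1 summits lay 184 and 141 bp upstream of its start, past the start of ATP6V1D.

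The E-box CACGTG, which reads the same on both strands, lay with all its bases within 100 bp of the summit of a gene's highest MYC peak in 6 of the 40 genes (15%) and in 11.8% of all genes called in both lists. The 6 were EEF1E1 and EIF4H, with the motif near the summit in both lists, and EIF3E, EIF4G1, EIF5A2 and PABPC1, with it in a single list. EIF4A1 fell just outside, with the nearest base of its E-box 99 bp from the summit in both lists and the rest beyond the limit. EIF2B4 and EEF2 had an E-box 19 and 49 bp from the summit of a lower peak, in replicate 1 and replicate 2. Anywhere in the highest peak of either list, an E-box was present in 22 of the 40 genes (55%) and in 33.4% of all called genes. The peaks of the translation factor genes were also wider, with a median of 916 bp against 685 bp, and the part of width in this difference was not tested. The median of the mean fold enrichments was 21.3 for the 6 genes with an E-box at the summit and 14.5 for the 34 without, and over all genes it was 16.6 and 14.1. EIF4EBP1 and EEF1D, with means of 28.6 and 28.3, had none within 100 bp of a summit.

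In RefSeq promoters (GRCh38.p14, 250 bases before to 50 after the start), 42 of the 53 genes were matched. Unmatched were EIF2S2, EIF3A, EIF3E, EIF3G, EIF3H, EIF3L, EIF4EBP1, EEF1A2, EEF1D, PABPC1 and PABPC4. The promoter counts thus leave out EIF3E, EIF4EBP1, EEF1D and PABPC1, the genes with the highest mean MYC fold enrichment. They depend on which genes were matched. An E-box was present in a promoter of 10 of these (23.8%), against 10.9% of 15345 protein-coding genes, and EIF4E, EIF4G1 and EIF5A2 held 2 or more. Only 6 of the 10 were called in both MYC lists. Among matched genes called in both MYC lists, 6 of 31 (19.4%) held an E-box, against 15.7% of all such genes. No promoter of the 42 genes held a heat shock element, which 0.534% of all genes did. Of the 42 genes, 10 (23.8%) had a start at C followed by 4 pyrimidines, the form of the mRNAs with a terminal pyrimidine tract whose translation depends on mTOR, against 6.32% of all genes. They were EEF1A1, EEF1B2, EEF2, EIF2S3, EIF3D, EIF3F, EIF3K, EIF3M, EIF4A2 and EIF4B, and 7 of them (70%) were called in both MYC lists, near the 73.8% of all 42 matched genes. Of all protein-coding genes with such a start, 52.8% were called. A match is a description of the annotated start and of letters, not a measured tract or site.

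HSF1 was called in both lists at EIF1AD, EIF2B5 and EIF4A2. EIF1AD had HSF1 fold enrichments of 26.3 and 70.7 with pileups of 82 and 169, beside 26.7 and 21.3 for MYC. The HSF1 peaks span chr11:66002029-66003021 in replicate 1 and chr11:66001828-66003156 in replicate 2 (GRCh38). HSF1 and MYC summits were 1 to 26 bp apart over the 4 pairs of lists. All 4 summits lay 217 to 243 bp upstream of the canonical EIF1AD start, past the start of BANF1, a chromatin-binding protein gene on the other strand whose start is 71 bp away, so the peaks cannot be given to either gene alone.

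EIF2B5, which encodes the catalytic subunit of eIF2B, had HSF1 fold enrichments of 12.5 and 35.8 and MYC fold enrichments of 16.7 and 19.0. Its HSF1 peaks span chr3:184134189-184135309 and chr3:184134315-184135357, upstream of the canonical start and over the divergent transcript EIF2B5-DT. The heat shock element shown above starts at position 184134949, 26 bp from the HSF1 summit of replicate 1 and 149 bp from that of replicate 2. MYC replicate 1 had a pair of peaks here, at 16.7 and 13.9, and the summit of its highest peak was 620 and 807 bp from the HSF1 summits, while that of the lower peak was 277 and 90 bp from them. The MYC summit of replicate 2 was 866 and 1053 bp from the HSF1 summits.

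EIF4A2, a helicase of eIF4F, had HSF1 fold enrichments of 12.0 and 15.0, and MYC fold enrichments of 16.7 and 15.7. The HSF1 summits lay in intron 1, 83 and 127 bp downstream of the canonical start, and the MYC summits of the highest peaks lay 189 and 156 bp upstream of it, so that the factors' summits were 239 to 316 bp apart. Its heat shock element starts at position 186783771, 111 and 67 bp from the HSF1 summits. In all protein-coding genes called in both HSF1 lists, 21.5% held the element in a highest peak. The highest HSF1 peaks of the 3 translation factor genes were wider, with a median of 1018 bp against 387 bp, and the part of width in this was not tested. No HSF1 peak at a translation factor gene held an E-box, and only 13.6% of all genes called in both HSF1 lists held one in a highest peak. The other helicase gene, EIF4A1, had no HSF1 peak.

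**Figure D4:**
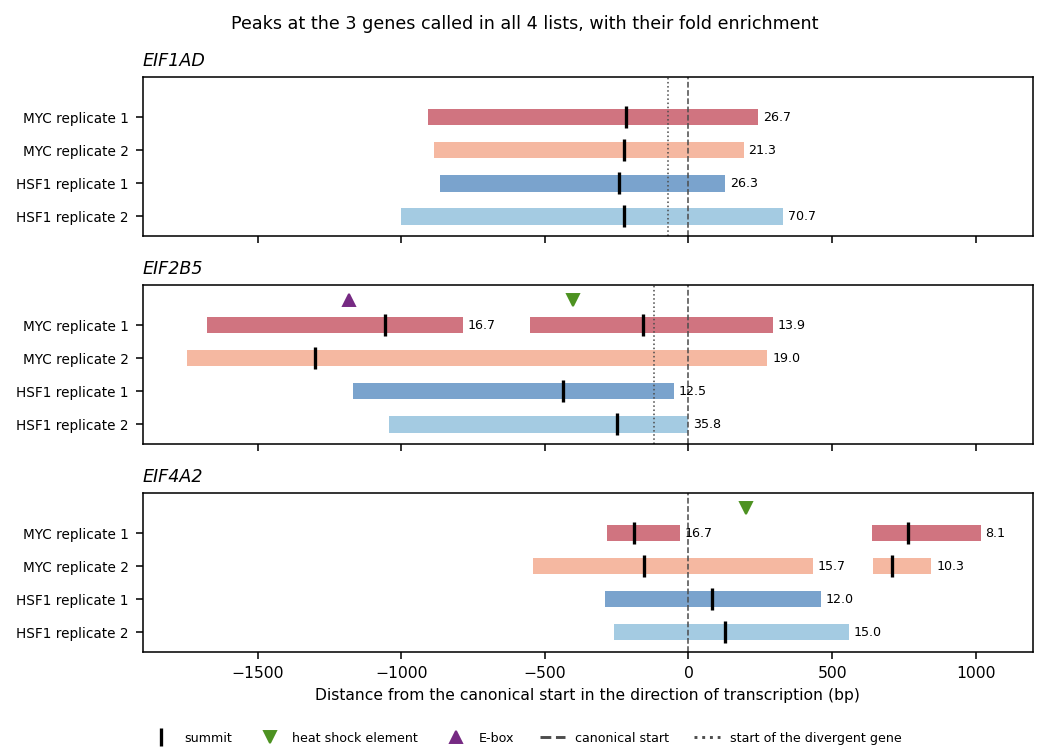
Horizontal bars are the peaks of each list at EIF1AD, EIF2B5 and EIF4A2, by distance in bp from the canonical start in the direction of transcription, with the fold enrichment to the right of each bar. Black ticks mark summits, which coincide within 26 bp at EIF1AD and lie 239 to 316 bp apart between the factors at EIF4A2 (highest peaks); triangles mark heat shock elements and E-boxes.

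A further 4 genes (7.55%) had an HSF1 peak in a single list, near the background of 8.45% of all protein-coding genes, and all had lower fold enrichments than the 3 genes above. EIF5A was called in replicate 1 with 3.77, and EIF5 (8.66), EIF3E (5.95 and 4.15, from a pair of peaks) and EEF1A1 (3.25) in replicate 2. The derived IgG background was 3.78 at the EIF5A peak and 5.15 at the EEF1A1 peak, against 0.617 at EIF5. The peaks of all 4 genes overlapped a MYC peak of both lists by at least 1 bp. No share of such overlaps over all genes is given, so this count cannot be called high. Of the 699 protein-coding genes called in both HSF1 lists, 611 were in all 4 lists. At a −log10 p of 10, the threshold of the MYC lists, EIF1AD, EIF2B5 and EIF4A2 remained and 1.27% of all protein-coding genes were called in both HSF1 lists.

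The other genes of the pathway were called less completely for MYC. This list of 44 holds regulators, kinases, modification enzymes, recycling factors, mitochondrial translation factors and paralogs of the translation factor genes. In both MYC lists 23 of 44 genes, or 52.3%, were called, against 40.1% of all protein-coding genes. The 13 genes without a MYC peak included the paralogs EIF1B, EIF2S3B, EIF3CL, EIF5AL1, PABPC3, PABPC5, GSPT2, EIF4E3 and EIF4EBP3. The difference from the translation factor genes, and the part of these paralogs in it, was not tested. LARP1, which binds mRNAs with a terminal pyrimidine tract, had 60.4 and 48.2, above every translation factor gene, and ABCE1, which splits ribosomes after termination, had 29.1 and 32.7. Of this list, EIF2AK2, the kinase of eIF2 that senses double-stranded RNA, was the only gene called in both HSF1 lists, with fold enrichments of 5.29 and 4.95, and 11 more (25%) were called in a single HSF1 list, against the 8.45% of all protein-coding genes. Of 9 mitochondrial factor genes, 4 were called in both MYC lists, where 40.1% of all protein-coding genes were. Both enzymes that modify eIF5A, DHPS and DOHH, were called in both.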

How the data were processed

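The files analysed were peak lists from OVCAR8 cells, 2 for MYC and 2 for HSF1. Per the file headers and the submitters' processing notes, reads were aligned to hg38 with Bowtie2, and the authors called peaks on each library with MACS 2.2.9.1 against the same IgG library, without pooling. The deposited columns are the pileup (summit signal, in fragments), a −log10 p-value and −log10 q-value, and a fold enrichment (the ratio of pileup to local background, each plus 1). No test of differential binding was made, since the lists hold no counts.

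Peaks were assigned to starts of GENCODE 44 transcripts within 1 kb, and each gene was described by its highest peak per list. The IgG background was derived as (pileup + 1) / fold enrichment − 1. Chromosome lengths of the lists and GRCh38 were checked. Motifs were searched on both strands within 100 bp of summits. Assignment and motif search were tested on simulated data. The work used Python 3.11.15, pandas 2.3.3, pysam 0.24.0 and matplotlib 3.10.9. The genes, the list of other translation genes and all settings were chosen with earlier results of these data known. Named in full were genes with HSF1 in both lists, those with the 8 highest mean MYC values, those without MYC peaks and those in a single list. The labels do not say whether replicates are separate cultures.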

Additional observations from a re-analysis of the deposited data

How the results depend on the processing

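No paired analysis was possible because the results come from no test. The 40 genes with MYC peaks in both lists were 49 with a peak in either list. They were 49 without MYC replicate 2 (55.3% of all protein-coding genes) and 40 without replicate 1 (41.2%). With MYC peaks at a −log10 p of 20 they were 31 (28.3%), and under all other distances and starts 40 or 41 (36.5% to 43.6%). The 3 genes with HSF1 peaks in both lists became 7 with a peak in either list. They were 4 without HSF1 replicate 2 (8.58% of all protein-coding genes) and 6 without replicate 1 (6.85%). Those with both factors became 7 with a peak in either list and 3 to 6 without 1 replicate of either factor. The 6 genes with an E-box near the MYC summit became 15 with 250 bp either side, 13 with CACGTG or CACGCG, and 3 to 9 without 1 MYC replicate. Those 13 are 32.5% of the 40 genes, near the 31% of all genes called in both MYC lists. For the other counts of this paragraph no share over all genes is given. The median percentile of 76.3 was 68.4 to 80.0 without 1 MYC replicate and 65.0 with canonical starts only. The median summit distance of 123 bp was 119 to 129 bp without 1 MYC replicate and 189 bp with canonical starts only. The cause was not tested. The other values stayed within 1.5 times the count or within the spread between the lists. A peak missing at the depth and threshold of these lists is no proof of absence.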

Other observations

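EIF3I, an eIF3 subunit gene without a peak of either factor within 1 kb of a start, had HSF1 peaks inside the gene at chr1:32235997-32236472 in replicate 1 and chr1:32235744-32236404 in replicate 2 (GRCh38), 8383 and 8130 bp from the nearest annotated start. Their fold enrichments were 13.7 and 7.74. A MYC peak of replicate 2 lay in the same place, at chr1:32236139-32236358, with a fold enrichment of 8.70, and MYC replicate 1 had none there, its nearest peak being 12915 bp from a start. Of the 49 genes without an HSF1 peak in replicate 1, 3 had one within 10 kb, and of the 47 in replicate 2 it was 2. No share over all protein-coding genes is given for these counts, so they cannot be called high or low. These distances were looked at after the calls were known.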
